A study of Mus musculus with 8 samples.

Results

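LIF, IL6 and STAT3 signalling was followed through 9 genes in mouse iPSCs (induced pluripotent stem cells, here fibroblasts turned back into cells that can form every tissue). The genes were taken by name, with no threshold on their values: the ligands Lif and Il6, the receptor chains Lifr, Il6st and Osmr, the kinase Jak1, the transcription factor Stat3, and Socs3 and Pim1, which STAT3 induces. The 9 genes were chosen with earlier results of these data known, and all were among the 23284 gene symbols of the table. Expression was measured by RNA sequencing in 8 polyA libraries, as FPKM (fragments per kilobase of transcript, scaled between libraries), a level that can be set side by side between genes.

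The wild-type cells carried ColA1_miR203 (+/+) and Rosa26rtTA (+/+), read here as the unmodified alleles. Each of their 4 libraries followed a different transfection by 1 week: siControl, a control siRNA, siDnmt3a or siDnmt3b, which target those DNA methyltransferases, or the pair at once (double siRNA). None names a clone, and each group has 1 library. The knock-in cells carried ColA1_miR203 (KI/KI), which holds the microRNA miR-203, and Rosa26rtTA (KI/KI), which holds the transactivator that doxycycline (dox) switches on. Clones 1 and 2 of the knock-in line had 5 days of dox and then 2 weeks without it (dox, n = 2), and vehicle libraries came from clones 1 and 2 that had none (n = 2). All iPSCs came from embryonic fibroblasts in culture and were grown over feeder cells in serum replacement. The labels' growth protocol names no added LIF.

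LIF and IL6 are cytokines that signal through a shared chain, gp130, encoded by Il6st. LIF pairs gp130 with the LIF receptor, oncostatin M pairs it with the chain encoded by Osmr, and IL6 joins it through its own receptor Il6ra. Bound receptors activate JAK kinases, which phosphorylate STAT3. In mouse embryonic stem cells LIF and STAT3 hold the naive state, and feeder fibroblasts are a known source of LIF. In other tissues the same route drives the acute phase of inflammation, and SOCS3 closes the loop by blocking gp130 and the kinase.

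Sequences were read from RefSeq (GRCm38.p6) and GENCODE M21 (GRCm38) to show what miR-203 and STAT3 could find in these genes. The seed of miR-203-3p, bases 2 to 8, is in capitals in the mature microRNA. Its reverse complement, CATTTCA, was searched in the longest annotated 3' UTR of each gene and is in capitals in each site.
mmu-miR-203-3p, chr12:112130927-112130948, plus strand: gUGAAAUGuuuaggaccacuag
Socs3 site, chr11:117966112-117966140, minus strand: cagaaaagaaaCATTTCAgtaatttataa
Osmr site 1, chr15:6814589-6814617, minus strand: gaaaaaaaggaCATTTCAttgagtgatgc
Osmr site 2, chr15:6813631-6813659, minus strand: attttgtttttCATTTCAattttggttaa
Socs3 had 1 match in 1474 bases and Osmr 2 in 1794 bases, and the other 7 genes had 0. Of 18220 genes of the table with a 3' UTR, 16.7% had a match. The second Osmr site is followed by an A (an 8mer site) and the other 2 are not. A match is a description of the letters and does not show that the microRNA acted there.

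In the 250 bases before each RefSeq start (11 starts for the 9 genes), both strands were searched for 5 motifs. These were TTCNNNGAA of STAT factors, the NF-kB motif, TGANTCA of AP-1, TTGNGCAAT of C/EBP and TGACGTCA of CREB, and they overlapped in none of the promoters printed. The promoters of Il6 and Socs3 are shown because Il6 held 3 different motifs and Socs3 the only STAT motif, with the matches in capitals.
Il6, chr5:30012864-30013113, plus strand: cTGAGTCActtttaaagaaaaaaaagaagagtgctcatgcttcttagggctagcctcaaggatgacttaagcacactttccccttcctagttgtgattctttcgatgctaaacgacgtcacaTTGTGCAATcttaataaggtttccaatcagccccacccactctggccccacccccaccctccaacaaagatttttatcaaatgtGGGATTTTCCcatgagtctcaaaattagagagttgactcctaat
Socs3, chr11:117969367-117969616, minus strand: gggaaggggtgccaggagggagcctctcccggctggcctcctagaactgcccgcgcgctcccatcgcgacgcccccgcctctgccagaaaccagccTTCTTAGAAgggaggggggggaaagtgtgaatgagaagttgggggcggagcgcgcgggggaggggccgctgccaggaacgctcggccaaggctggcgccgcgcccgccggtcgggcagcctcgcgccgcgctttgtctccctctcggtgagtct
Of 32851 promoters in the RefSeq table, 7.02% held the STAT letters, 0.356% those of NF-kB, 6.75% those of AP-1 and 0.539% those of C/EBP. Lif held an AP-1 match and Jak1 a CREB match, the latter present in 1.55% of promoters. No match was found in the windows of Lifr, Il6st, Osmr, Stat3 and Pim1.

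Few facts of the series as a whole bear on these genes. Between 11620 and 12076 genes per library reached 1 FPKM. Fragment totals were not analysed here, and genes under 0.3 FPKM placed the libraries at 92.7% to 100% of the depth of siControl, a rough estimate. Dnmt3a was at 75.1 FPKM in siControl, 59.8 with its own siRNA, 77.6 with siDnmt3b and 69.5 with the double siRNA. Dnmt3b was at 146.3 in siControl, 128.3 with its own siRNA, 134.8 with siDnmt3a and 135 with the double siRNA. The depletions were thus small, and that of Dnmt3b was not limited to its own siRNA. Of 14 markers of pluripotent cells, 7 were higher and 5 lower in all 4 knock-in libraries than in all wild-type ones. Over all genes with a mean of 1 FPKM or more, 30.5% were higher and 30.2% lower. In dox against vehicle, 2 of the markers rose, 4 fell and 8 did not pass by limma. Of all genes tested there, 17.1% rose and 14.8% fell. Among the markers, Nanog had a mean of 72.1 FPKM in wild type, 233 in vehicle and 269 in dox. Its difference between dox and vehicle did not pass (0.22, limma adjusted p = 0.172). Pou5f1, which encodes Oct4, lay between 855 and 1223 in all 8 libraries. Markers of feeder fibroblasts summed to 272 to 393 FPKM in the wild-type libraries, 758 to 889 in vehicle and 2420 to 2503 in dox. Fn1 alone had means of 125, 306 and 587 there. Of these 20 markers, 15 were higher and 0 lower in all 4 knock-in libraries, and Pdgfra and Twist1 had lower means in vehicle than in wild type. Macrophage markers summed to 167 to 228, 286 to 320 and 410 to 517, with Cd163 and Mrc1 under 1 FPKM in all 8 libraries. Of the 11 macrophage markers found, 6 were higher and 1 lower in all 4 knock-in libraries, and Itgam had a lower mean in vehicle (0.975) than in wild type (1.89). No marker was at 0 in every library. In bulk RNA, fewer cells of a type and less RNA per cell cannot be told apart.

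**Figure D1:**
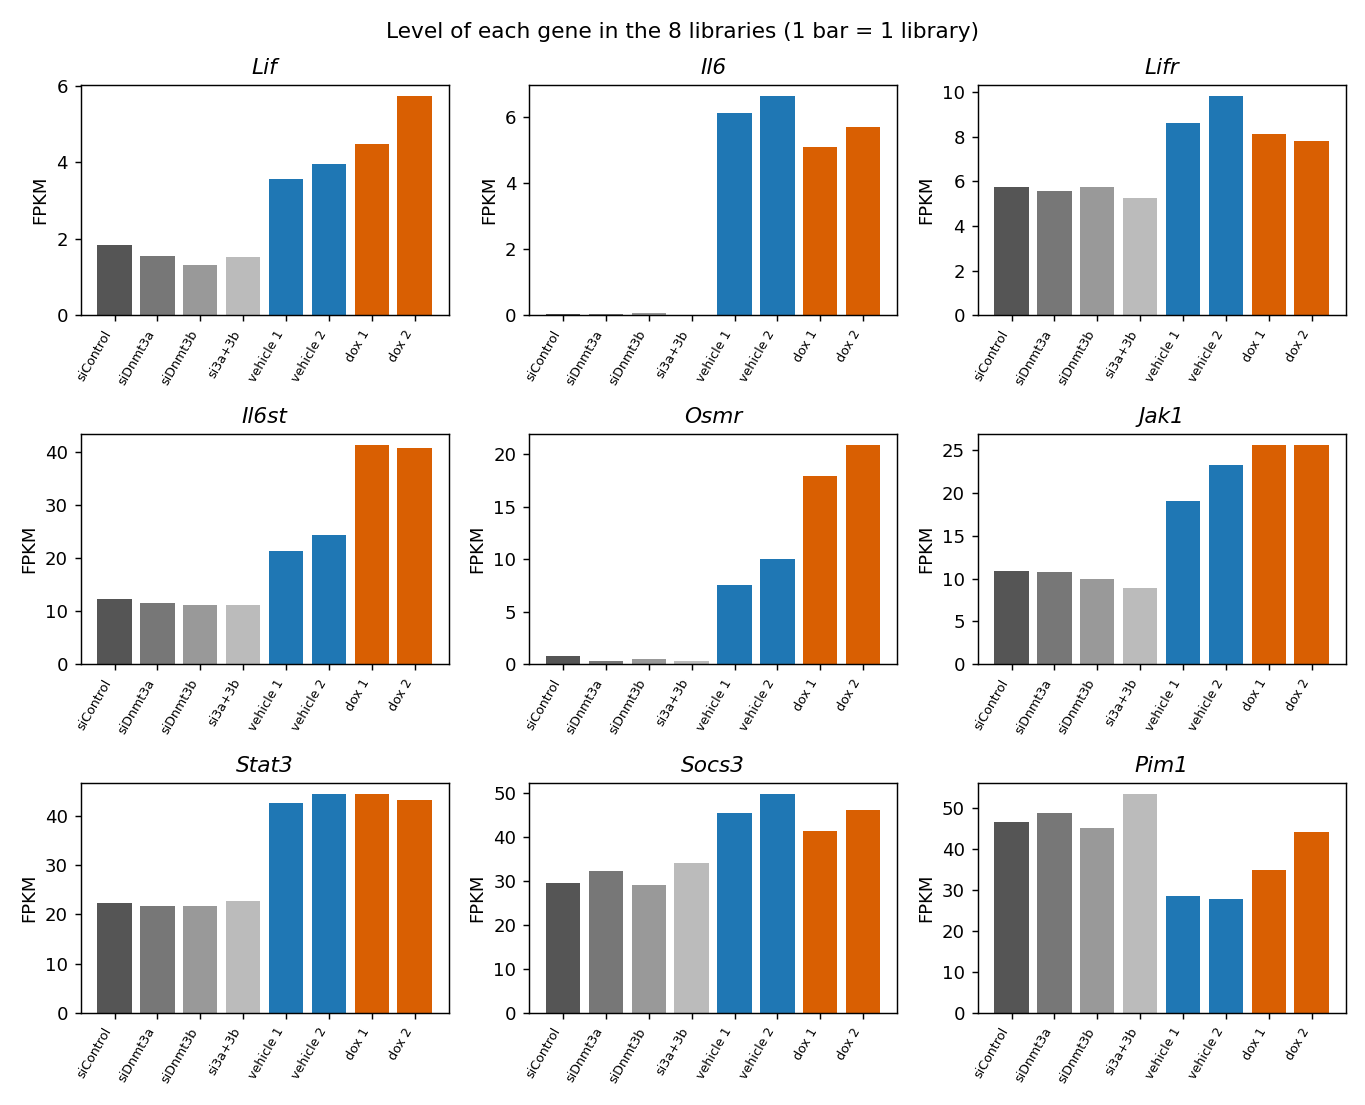
Level of each of the 9 genes in FPKM (y axis, starting at 0, scaled per gene) in each library (x axis): the 4 wild-type siRNA libraries in grey, vehicle clones 1 and 2 in blue and dox clones 1 and 2 in orange. A bar is 1 library. The knock-in libraries stand above the wild-type ones for every gene except Pim1, where they stand below, and Il6 is near 0 in the wild-type libraries only.

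The 2 cell lines were set side by side first. In both vehicle libraries of the knock-in line, 8 of the 9 genes were higher than in all 4 wild-type libraries and Pim1 was lower. The dox libraries fell on the same side for all 9. Over 12042 genes with a mean of 1 FPKM or more, 38.9% were above the wild-type libraries in both vehicle libraries and 37.3% below, and 30.5% and 30.2% were above and below in all 4 knock-in libraries. A difference of 1.5-fold or more between the vehicle mean and the wild-type median was reached upward by the same 8 genes, against 20.8% of all genes, and downward by Pim1, against 15.4%. The wild-type libraries are not replicates of 1 group, so no test was made, and line, genotype, clone and transfection cannot be told apart here. The marker sums above also differed between the lines, and their part in these values was not tested.

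Among the ligands, Il6 encodes the inflammatory cytokine interleukin 6 (chromosome 5, 30013114 to 30019981). Il6 was at 6.11 and 6.63 FPKM in vehicle clones 1 and 2 and at 5.07 and 5.69 in dox clones 1 and 2. In the wild-type libraries Il6 was at 0.0381 with siControl, 0.0381 with siDnmt3a and 0.0788 with siDnmt3b, and it was listed at 0 with the double siRNA. Every knock-in library thus stood apart from every wild-type one, and no fold is given because values this low can rest on single fragments. Lif, which encodes leukaemia inhibitory factor (chromosome 11, 4257557 to 4272514), was at 1.83, 1.56, 1.30 and 1.53 FPKM in the siControl, siDnmt3a, siDnmt3b and double siRNA libraries. Lif was at 3.58 and 3.97 in vehicle and 4.49 and 5.74 in dox, and no group overlapped another. The vehicle mean was 2.44 times the wild-type median.

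The receptor chains differed in how far the lines stood apart. Osmr, the oncostatin M receptor chain (chromosome 15, 6813577 to 6874969), was at 0.745, 0.326, 0.469 and 0.306 FPKM in the 4 wild-type libraries in the same order. It was at 7.59 and 10.0 in vehicle and 18.0 and 20.9 in dox. The vehicle mean was 22.2 times the wild-type median of 0.3975 FPKM, a rough fold, because the low wild-type values ran from 0.306 to 0.745. Il6st, the gp130 chain (chromosome 13, 112464070 to 112510086), was at 12.3, 11.6, 11.2 and 11.1 FPKM in wild type, 21.3 and 24.3 in vehicle and 41.4 and 40.7 in dox. For both genes the 3 sets of libraries did not overlap and were higher in that order. Lifr, the LIF receptor chain (chromosome 15, 7090614 to 7197489), was at 5.74, 5.58, 5.75 and 5.27 in wild type, 8.62 and 9.84 in vehicle and 8.15 and 7.84 in dox, with vehicle the highest. The level of Osmr relative to that of Lifr was 0.058 to 0.13 in the wild-type libraries, where it rests on the same low values of Osmr. It was 0.881 and 1.02 in vehicle clones 1 and 2, and 2.21 and 2.67 in dox clones 1 and 2.

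The kinase and the transcription factor stood about equally far apart between the lines. Jak1, the kinase bound to gp130 (chromosome 4, 101152367 to 101265282), was at 10.9, 10.8, 9.96 and 8.90 FPKM in wild type, 19.02 and 23.3 in vehicle and 25.6 in each dox library. Stat3 (chromosome 11, 100885098 to 100939540) was at 22.3, 21.8, 21.7 and 22.7 in wild type, 42.5 and 44.4 in vehicle and 44.5 and 43.3 in dox. The vehicle mean was 2.04 times the wild-type median for Jak1 and 1.97 times for Stat3. The 4 wild-type values of Stat3 lay close together, and its vehicle and dox values overlapped.

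The genes that STAT3 induces did not share a direction between the lines. Socs3, the feedback inhibitor (chromosome 11, 117966079 to 117970047), was at 29.6, 32.1, 29.0 and 34.1 FPKM in wild type, 45.4 and 49.8 in vehicle and 41.3 and 46.1 in dox. Pim1, a serine/threonine kinase of cell survival (chromosome 17, 29490753 to 29496112), was at 46.4, 48.7, 45.1 and 53.4 in wild type, 28.4 and 27.7 in vehicle and 34.8 and 44.0 in dox. Socs3 was thus higher in the knock-in line (1.54 times the wild-type median in vehicle), and the wild-type median of Pim1 was 1.70 times its vehicle mean. The level of Pim1 relative to that of Stat3 was 2.08 to 2.35 in wild type, 0.625 and 0.667 in vehicle, and 0.782 and 1.02 in dox. That of Socs3 relative to Stat3 was 1.33 to 1.5 in wild type and 0.927 to 1.12 in the 4 knock-in libraries. All 9 genes are annotated as protein-coding in GENCODE M21, and each value covers the whole gene.

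The order of the levels changed with the line. In siControl it ran Pim1, Socs3, Stat3, Il6st, Jak1, Lifr, Lif, Osmr and Il6. In vehicle, with both values of a gene above both of the next unless stated, Socs3 led at 47.6 ± 3.10 FPKM (SD, n = 2), before Stat3 at 43.4 ± 1.31, Pim1 at 28.1 ± 0.449, Il6st at 22.8 ± 2.15 and Jak1 at 21.2 ± 3.01. There Il6st and Jak1 overlapped, as did Lifr at 9.23 ± 0.859 and Osmr at 8.82 ± 1.73, while Il6 at 6.37 ± 0.367 and Lif at 3.77 ± 0.278 closed the order. In dox both values of Stat3, at 43.9 ± 0.873, lay above both of Il6st, at 41.1 ± 0.456. Those of Socs3, at 43.7 ± 3.43, and Pim1, at 39.4 ± 6.51, overlapped both genes. Jak1 at 25.6 ± 0.0177 and Osmr at 19.5 ± 2.08 came next, then Lifr at 7.99 ± 0.220, and Il6 at 5.38 ± 0.435 overlapped Lif at 5.12 ± 0.880.

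Dox and vehicle libraries of the knock-in line were then compared with limma, on differences of log2(FPKM + 1) over 11927 genes, with p-values adjusted by Benjamini-Hochberg and called under 0.05. The labels name clones and not separate experiments, so the p-values measure the spread between these 4 libraries. Of the 9 genes, Osmr, Il6st and Pim1 rose and 6 did not pass. Among all genes tested, 17.1% rose and 14.8% fell, and both dox libraries lay above both vehicle libraries for 35.1% of genes. None of the 9 fell by limma, with 0 lower at an unadjusted p under the threshold and 0 with the clone as a block. The median difference of the 9 was 0.27, beside -0.01 for all genes tested.

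Osmr had the largest difference of the 9. Its dox mean was 2.2 times the vehicle mean, a log2 difference of 1.07 (SE 0.141, limma adjusted p = 0.00353), and 2.55% of genes had a larger rise. It was higher by 1.14 in clone 1 and 0.99 in clone 2, where equal clone numbers are taken to name the same clone, which the labels do not state outright. Il6st was 1.8 times its vehicle mean, a difference of 0.82 (SE 0.0895, limma adjusted p = 0.00175), with 0.93 in clone 1 and 0.72 in clone 2, and 4.62% of genes had a larger rise. Both receptor chains passed in each of the 14 alternative settings tried. In the same libraries all 20 fibroblast markers rose (median 1.49), as did 6 of 9 tested macrophage markers (median 0.51). So did 4 of 4 tested markers of trophoblast (8 listed, median 0.52), 2 of 3 of primitive endoderm (9 listed, 1.12) and 1 of 3 of endothelium (8 listed, 0.56). The listed markers not tested, such as Cdx2, Sox17 and Cdh5, had a mean under 1 FPKM in the knock-in libraries. Tek, of endothelium, was at -0.31 and did not pass. Pdgfra, which rose, is in both the fibroblast and the primitive endoderm lists. Of all genes tested, 17.1% rose. The part of any of these cells in the rise of Osmr and Il6st was not tested.

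Pim1 rose by 0.47 (SE 0.117, limma adjusted p = 0.0274), by 0.29 in clone 1 and 0.65 in clone 2. The call was lost at adjusted p = 0.0784 without vehicle clone 1, 0.0744 without vehicle clone 2, 0.0696 without dox clone 2, and 0.0808 with no minimum level. Lif was higher in dox by 0.35 (SE 0.130, limma adjusted p = 0.0807) and Jak1 by 0.27 (SE 0.108, limma adjusted p = 0.0982), and neither passed. Both passed with the clone as a block, at limma adjusted p = 0.0121 and 0.0171, which brought the count to 5 of 9, where 52.3% of all genes passed in either direction against 31.9% without the block. Single libraries moved both. Lif was at 0.50 without dox clone 1 (limma adjusted p = 0.0265) and 0.20 without dox clone 2 (adjusted p = 0.373), and Jak1 at 0.41 without vehicle clone 2 (limma adjusted p = 0.0461) and 0.13 without vehicle clone 1 (adjusted p = 0.483).

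The other 4 genes did not pass with or without the block. Il6 was at -0.21 (SE 0.103, limma adjusted p = 0.162), Lifr at -0.18 (SE 0.099, limma adjusted p = 0.193), Socs3 at -0.12 (SE 0.0904, limma adjusted p = 0.330) and Stat3 at 0.01 (SE 0.0735, limma adjusted p = 0.889). The dox values of Il6 and Lifr lay below both vehicle values, as did 37.1% of all genes, while those of Socs3 and Stat3 overlapped them. Osmr, with 2 seed matches, thus rose, and Socs3, with 1, did not pass the test, 2 weeks after dox was withdrawn. The level of miR-203 itself was not analysed here.

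**Figure D2:**
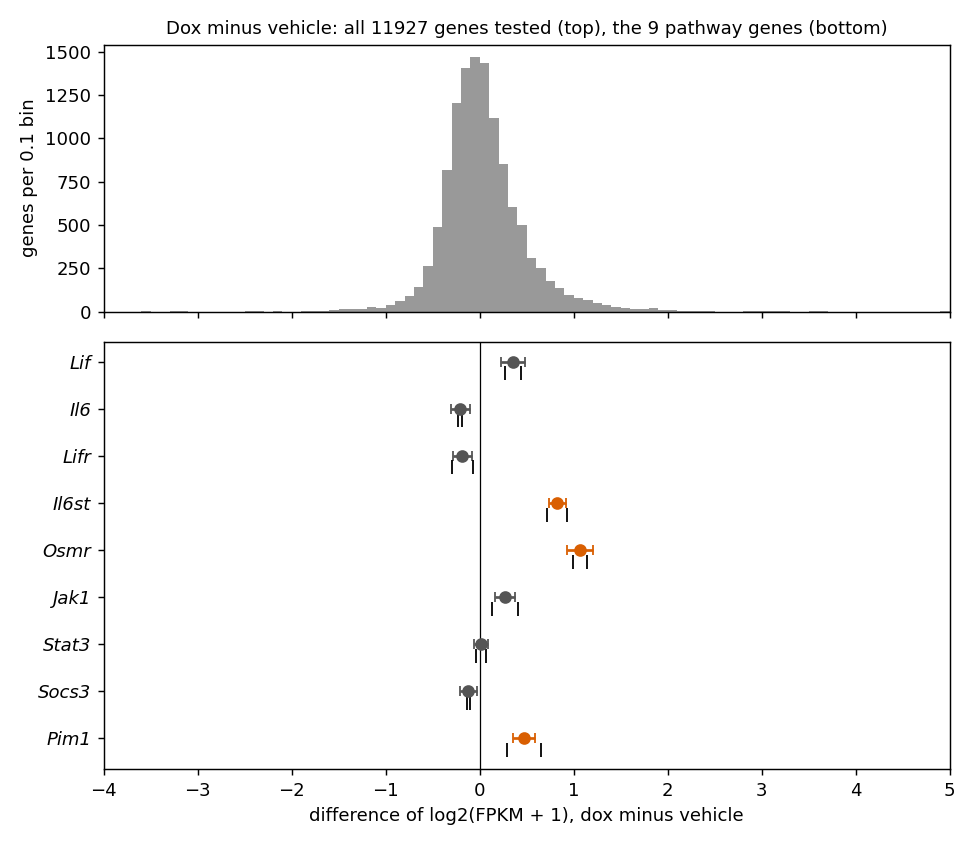
Differences of log2(FPKM + 1) between dox and vehicle (x axis). The top panel counts the 11927 genes tested in bins of 0.1 (y axis). The bottom panel gives the 9 genes, with a point for the mean difference, a bar of 1 SE either side and ticks for clones 1 and 2, in orange where limma's adjusted p was under 0.05. Osmr at 1.07 and Il6st at 0.82 lie in the upper tail of all genes, and Stat3 lies at 0.01.

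Other genes of the pathway were described in 7 lists of 79 genes, of which 72 were tested in dox against vehicle. Of these 27 rose, or 37.5%, and 10 fell, or 13.9%, beside 17.1% and 14.8% of all genes. Of the rises, 14 were in 1 list, the STAT3 targets of the acute phase, and the remaining lists moved in both directions. All these counts are from libraries in which the fibroblast markers rose. The lists were chosen with earlier results of these data known, so the counts describe the lists and are not independent support.

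Of 5 tested ligands of the family, 2 rose, 1 fell and 2 did not pass (median -0.14). Ebi3, a subunit of the IL27 cytokine, went from a mean of 2.56 FPKM in vehicle to 5.72 in dox (0.92, limma adjusted p = 0.00335). Il27, which encodes the other subunit of that cytokine, went from 2.21 to 0.268 (-1.34, limma adjusted p = 0.00112), so the 2 subunits moved in opposite directions. Il27 did not pass the minimum level without either vehicle library. Without vehicle clone 1 or dox clone 2, 1 ligand rose. With the clone as a block, 2 fell.

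Of 3 tested receptor chains, Il11ra1, of the IL11 receptor, rose from 2.13 to 4.56 FPKM (0.83, limma adjusted p = 0.00461). Cntfr, the CNTF receptor, fell from 6.10 to 2.98 (-0.84, limma adjusted p = 0.00450). In the wild-type libraries Cntfr was at 99.6, 108, 102 and 120 FPKM, so its 2.76 to 6.60 in the knock-in libraries was far below them. Il6ra, through which IL6 reaches gp130, was at 1.27 FPKM in vehicle and 1.42 in dox and did not pass (0.09, limma adjusted p = 0.577), and it lay between 0.322 and 0.508 in wild type.

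Of 9 other JAK and STAT genes, 3 rose, 3 fell and 3 did not pass (median 0.14). Stat2, which carries interferon signals, fell from 74.0 to 32.5 FPKM (-1.16, limma adjusted p = 4.01e-04). Stat6, the factor of IL4, rose from 10.9 to 16.4 (0.55, limma adjusted p = 0.0125) and Stat5a from 2.21 to 3.57 (0.51, limma adjusted p = 0.0159). In the same libraries Stat3 differed by 0.01, so the STAT genes did not move together. Without vehicle clone 1 or dox clone 2, 1 rose.

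Of 16 negative regulators, Socs5 rose, Socs1 and Socs2 fell and 13 did not pass (median -0.10). Socs1, a feedback inhibitor of interferon signals, went from 28 to 8.96 FPKM (-1.54, limma adjusted p = 8.46e-04) and Socs2, which restrains growth hormone signals, from 34.5 to 20.4 (-0.74, limma adjusted p = 0.0220). Socs5 rose from 2.71 to 4.86 (0.66, limma adjusted p = 0.00725). Without vehicle clone 1, 1 gene fell. With a correction for GC content and length 4 fell, and with the clone as a block 2 rose.

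Of 10 STAT3 targets known from pluripotent cells, Ier3, Klf4 and Tfcp2l1 rose, Gbx2 fell and 6 did not pass (median 0.12). Klf4, a reprogramming factor, rose from 65.3 to 113 FPKM (0.79, limma adjusted p = 0.00306), Tfcp2l1, a factor of the naive state, from 71.2 to 109 (0.60, limma adjusted p = 0.00206), and Ier3, an early response gene, from 25 to 58.9 (1.2, limma adjusted p = 6.37e-04). Gbx2, a homeobox factor, fell from 6.95 to 4.33 (-0.58, limma adjusted p = 0.00836). Across lines, 6 of the 10 were higher and 2 lower in all 4 knock-in libraries than in all wild-type ones, beside 30.5% and 30.2% of all genes. Tfcp2l1 was at 6.30 to 7.98 FPKM in the wild-type libraries and 70.2 to 110 in the knock-in ones, while Gbx2 was at 83.4 to 96.5 and 4.20 to 7.24. A block for the clone gave 5 rises and 2 falls, and without vehicle clone 1, 2 fell.

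Of 16 tested STAT3 targets of the acute phase, 14 rose, none fell and 2 did not pass (median 1.00). This list, too, was chosen with earlier results of these data known. A block for the clone gave 15 rises and 1 fall. Lcn2, an iron-scavenging secreted protein, had the largest difference (3.69, limma adjusted p = 2.26e-05) and Saa3, a serum amyloid, the next (2.5, limma adjusted p = 3.14e-05). Steap4, a metalloreductase, rose from 2.88 to 13.9 FPKM (1.94, limma adjusted p = 2.99e-04) and Lbp, which binds lipopolysaccharide, from 2.2 to 11.1 (1.92, limma adjusted p = 1.61e-04). In the wild-type libraries Lbp lay at 0.0985 to 0.180 FPKM and Steap4 at 0.435 to 1.23. Fibroblasts and macrophages are known to express several genes of this list. All 20 fibroblast markers and 6 of 9 tested macrophage markers rose in the same libraries, as did some markers of other cell types. The part of any of these cells in the rises of this list was not tested.

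Of 13 tested cytokines, receptors and NF-kB genes that act upstream of Il6, 3 rose, 2 fell and 8 did not pass (median 0.16). Tnf, a cytokine that induces Il6, fell from 13.7 to 3.79 FPKM (-1.61, limma adjusted p = 2.20e-04), and Tlr2, a receptor for bacterial lipids, from 18.3 to 8.53 (-1.01, limma adjusted p = 0.00128). Il1r1, the IL1 receptor, rose from 0.854 to 2.90 (1.07, limma adjusted p = 0.00151) and Tnfrsf1a, a TNF receptor, from 16.5 to 26.3 (0.66, limma adjusted p = 0.0153). Across lines, 13 of the 14 genes of the list were higher in all 4 knock-in libraries than in all wild-type ones, as were 30.5% of all genes. Il1b, which also induces Il6 and is named outside the rule after its values were seen, was at 0.203 to 0.375 FPKM in wild type and 25.8 to 30.2 in the knock-in libraries.

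**Figure D3:**
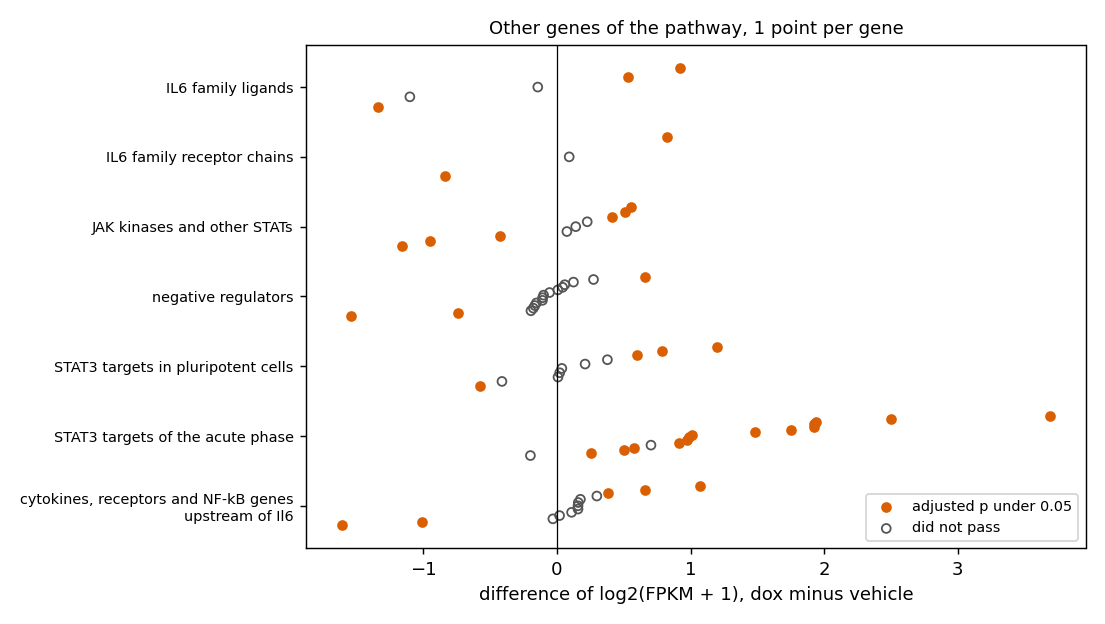
Differences of log2(FPKM + 1) between dox and vehicle (x axis) for the 72 other pathway genes tested, 1 point per gene, grouped by list (y axis) and spread vertically for legibility. Filled orange points passed limma's adjusted p under 0.05 and open points did not. The STAT3 targets of the acute phase lie mostly to the right of 0, up to 3.69, and the other lists lie on both sides.

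The siRNA libraries were each set against siControl as differences of log2(FPKM + 1), with no replicate and no p-value, and the 3 comparisons share the siControl library. Il6 and Osmr had a mean under 1 FPKM and were left out of counts. Of the other 7 genes, 5, 6 and 4 were lower than siControl with siDnmt3a, siDnmt3b and the double siRNA, with medians of -0.03, -0.04 and -0.10 beside -0.00, -0.00 and 0.01 for all genes. A difference of 1.2-fold or more was reached by Lif with siDnmt3b (-0.30) and by Jak1 with the double siRNA (-0.27). Such a fall was found at 3.10%, 3.43% and 11.4% of all genes in the 3 comparisons, and such a rise at 2.49%, 1.27% and 11.5%. None of the 7 reached 2-fold, a rise found at 0.068%, 0.0512% and 0.102% of all genes and a fall at 0.085%, 0.0597% and 0.136%.

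Lif was lower than siControl in all 3 libraries, with changes of -14.7%, -28.9% and -16.4% on the FPKM scale. Those of Il6st were -5.67%, -8.86% and -9.27%. With a correction for GC content and length, the double siRNA differences of Il6st and Lifr turned to 0.04 and 0.13 (log2), and 2 of the 7 genes were lower there, Lif and Jak1. Osmr was below its siControl level of 0.745 FPKM in all 3, at -56.3%, -37.0% and -58.9%, at levels under 1 FPKM. On the log2(FPKM + 1) scale, 1.39%, 3.78% and 3.86% of genes with a mean of 1 FPKM or more had a lower difference. The fragments of Osmr were not counted here. Stat3 differed by -0.03, -0.03 and 0.03 (log2), and Lifr by -0.04, 0.00 and -0.10. Socs3 and Pim1 were at 0.20 each with the double siRNA, but at 0.06 and 0.09 with that correction and at 0.01 each with libraries rescaled to equal sums. Feeder fibroblast markers with a mean of 1 FPKM or more were lower in the same libraries, 19 of 19, 18 of 18 and 19 of 19. Their medians were -0.58, -0.65 and -0.74, beside -0.004, -0.003 and 0.009 for all genes. These 3 counts share the siControl library and are not separate evidence. The part of fibroblasts in the values of the 9 genes was not tested.

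**Figure D4:**
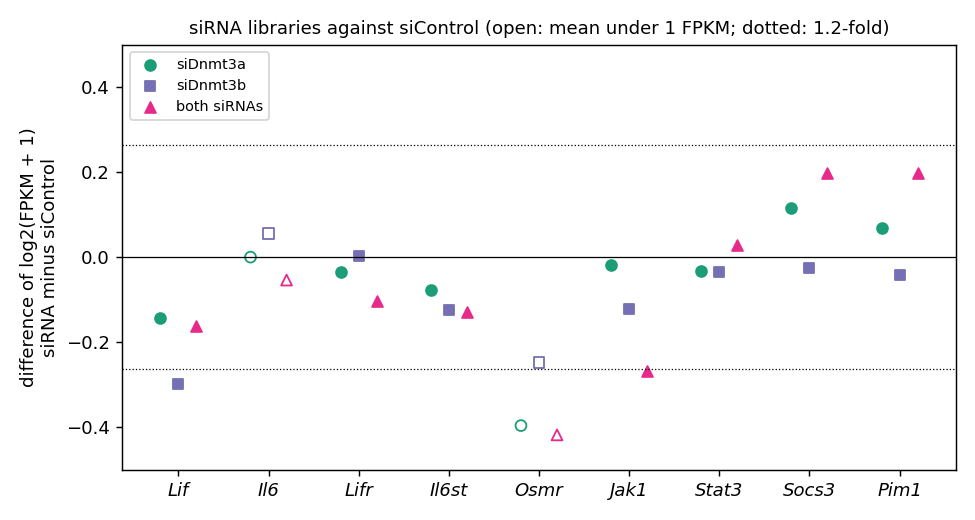
Differences of log2(FPKM + 1) from the siControl library (y axis) for the 9 genes (x axis) with siDnmt3a (circles), siDnmt3b (squares) and both siRNAs (triangles), 1 library each. Open symbols mark genes with a mean under 1 FPKM, and dotted lines mark 1.2-fold. Filled points past the lines are Lif with siDnmt3b at -0.30 and Jak1 with both siRNAs at -0.27.

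The genes whose profiles over the 8 libraries lay nearest were sought for the 6 genes that ranged by more than 1 on the log2(FPKM + 1) scale, by the root mean square distance after centring each gene on its own mean. Nearest to Osmr were Tnc, a matrix protein of remodelling tissue (distance 0.110), and Serpina3g, a protease inhibitor with close copies whose value is uncertain (0.163). Nearest to Il6st were Pam, which amidates peptides (0.0549), and Tagln2, an actin-binding protein (0.0636). Nearest to Il6 were Casp4, an inflammatory caspase (0.115), and Rnd1 (0.136). Lif lay nearest to Vmac (0.0519) and to Flt1, a VEGF receptor (0.0705). Jak1 lay nearest to Rab5b, of early endosomes (0.0629), and Abcg1, a sterol transporter (0.0720), and Stat3 to Kdm3b, a histone demethylase (0.0413), and Slc41a1, a magnesium transporter (0.0424). The 8 libraries fall into a wild-type and a knock-in set, and a small distance mostly says that a gene divides them by a like amount. Lifr, Socs3 and Pim1 ranged by less than 1.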

How the data were processed

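The values are FPKM, deposited by the authors as 1 table with 1 column per library. Per the submitters' processing notes, Cuffnorm, Cufflinks 2.2.1, SAMtools 0.1.19, Bowtie 1.0.0, TopHat2 2.0.10 and FastQC were used, with the builds GRCm38 and mm10. No source used here gives the library scaling, annotation release or strand setting. Abundant genes that rise lower the FPKM of the rest.

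Columns were tied to samples by the library code in the labels. The dox comparison used R 4.3.3 and limma 3.58.1 (lmFit, eBayes with trend) on log2(FPKM + 1), over genes with a mean of 1 FPKM or more, two-sided. The scale understates changes of low genes. On simulated data for this comparison over 11927 genes, the test recovered 74% of 200 genes changed by 1 on the log2 scale, and 3.9% of its calls were false. The changed genes were drawn from those of higher level, and the noise was independent between libraries. Far fewer genes were changed than were called in the data, so these shares may not hold for the data or for low genes.

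The members and lists were chosen with earlier results of these data known. Named genes are the 9 members, up to 4 genes with the largest difference among those that passed in each list, and the 2 nearest profiles. Predicted genes, clone names, small RNA genes and joined symbols were not named, and some genes that the rule names are not reported here. The clone number in the labels was taken as pairing, though they do not say outright that equal numbers are the same clone, and the clone 1 minus clone 2 differences of the dox and vehicle pairs had r = 0.441 over genes, which are not independent. Alternatives varied the pseudocount, minimum level, block, trend, scaling, GC content and length (99.2% of genes matched) and left out each library.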

Additional observations from a re-analysis of the deposited data

How the results depend on the processing

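Of the 9 genes in dox against vehicle, 3 rose in the comparison as reported, 5 with the replicate block, and 2 to 4 when 1 library was left out, while 0 fell in any setting run. Osmr and Il6st kept their direction and their call in all 14 alternatives, from 0.83 to 1.25 and from 0.73 to 0.92. Without a call in the report, Il6 turned to 0.0147 and Stat3 to -0.0727 with the GC content and length correction (chosen after seeing the data), and Stat3 ranged from -0.0152 to 0.0448 when 1 library was left out. The cause was not tested. Lif and all receptor chains of the lists were not tested with a minimum of 5 FPKM, because their means over the 4 knock-in libraries lay below it. Over all genes, 2035 rose and 1767 fell. The falls were 947 with no minimum level and 3190 with the replicate block, and the rises 1289 with a minimum of 5 FPKM. Without 1 library, 1100 to 2064 rose and 538 to 1993 fell. Pathway genes that rose numbered 22 to 27 without 1 library, beside 27, and those that fell 8 to 11, beside 10. Differences of 1.2-fold among the siRNA comparisons numbered 2 as reported, 5 with libraries rescaled to equal sums, which moved the median of all genes in the double siRNA comparison to -0.16, and 1 with the GC content and length correction. Between lines, 8 genes above and 1 below held under 3 scalings and without either vehicle library, alternatives chosen after seeing the data. In the wild-type libraries Il6 and Osmr were both under 1 FPKM, and depth limits Il6 there.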
